A study of Mus musculus with 16 samples.

Results

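The genes described here are 9 interferon response genes taken by name: Ifit1, Ifit2, Ifit3, Gbp2, Gbp3, Irf1, Irf7, Stat2 and Isg15. Of these, 7 were measured on an array row that carries 1 gene symbol, out of 19938 genes measured that way; the rows of Gbp2 and Isg15 carry several symbols, and both genes were not analysed here. The RNA came from N25/2, an immortalized line of embryonic mouse hypothalamic cells grown in DMEM with fetal bovine serum, penicillin, streptomycin and amphotericin. Cells were then kept in medium that held amino acids (control) or lacked them (deprived) for 1, 2, 3, 5 or 16 h. There was 1 whole-transcript array per group at 1, 2, 3 and 16 h and 4 per group at 5 h, 16 arrays in all. Nothing in the labels tells whether the replicate arrays of 5 h came from separate cultures, and the spread among them, from which the p-values at 5 h and at single times come, may be technical only. The labels name no interferon or virus treatment.

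Interferons are secreted proteins that cells release when they sense viral nucleic acid. They bind surface receptors whose kinases, Jak1 and Tyk2, phosphorylate STAT proteins such as Stat2; with Irf9, Stat2 takes part in a complex that binds the interferon-stimulated response element (ISRE) in target promoters. Targets include the Ifit genes, whose proteins bind viral RNA, the guanylate-binding proteins (Gbp), GTPases that attack pathogen membranes, and Isg15, a ubiquitin-like modifier. Irf7 amplifies interferon production, and Irf1 is a transcription factor induced by interferon gamma and NF-kB. Unstimulated cells hold a low tonic level of many of these transcripts.

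The promoters of the Ifit and Gbp3 genes are shown because they carry the element that defines this response and because Ifit2, next to Ifit3 on chromosome 19, is set beside them in the measurements. Each window runs from 250 bases before to 50 bases after an annotated start (RefSeq, GRCm38.p6, plus strand). Capitals mark matches to the ISRE core (GAAA, any 2 bases, GAAA) on either strand, here always the strand opposite to the gene, or, in Ifit2, to the gamma-activated site TTCNNNGAA bound by STAT dimers.
Ifit1, chr19:34640639-34640938: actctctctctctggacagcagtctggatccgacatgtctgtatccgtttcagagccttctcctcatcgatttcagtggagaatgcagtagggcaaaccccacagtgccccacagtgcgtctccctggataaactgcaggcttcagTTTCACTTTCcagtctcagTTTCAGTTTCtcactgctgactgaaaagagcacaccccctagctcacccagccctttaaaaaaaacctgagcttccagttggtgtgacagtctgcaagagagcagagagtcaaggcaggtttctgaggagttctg
Ifit3, chr19:34583279-34583578: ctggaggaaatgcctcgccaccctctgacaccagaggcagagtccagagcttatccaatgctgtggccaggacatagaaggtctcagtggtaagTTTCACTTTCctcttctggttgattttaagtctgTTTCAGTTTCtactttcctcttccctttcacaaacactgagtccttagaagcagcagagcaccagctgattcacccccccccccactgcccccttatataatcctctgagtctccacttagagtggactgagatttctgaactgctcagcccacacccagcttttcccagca
Gbp3, chr3:142559794-142560093: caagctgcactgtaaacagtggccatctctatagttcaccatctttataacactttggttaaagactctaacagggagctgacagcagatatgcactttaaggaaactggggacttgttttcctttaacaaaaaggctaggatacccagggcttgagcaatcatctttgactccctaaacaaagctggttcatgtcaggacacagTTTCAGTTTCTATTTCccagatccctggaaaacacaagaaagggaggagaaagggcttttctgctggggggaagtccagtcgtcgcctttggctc
Ifit2, chr19:34550444-34550743: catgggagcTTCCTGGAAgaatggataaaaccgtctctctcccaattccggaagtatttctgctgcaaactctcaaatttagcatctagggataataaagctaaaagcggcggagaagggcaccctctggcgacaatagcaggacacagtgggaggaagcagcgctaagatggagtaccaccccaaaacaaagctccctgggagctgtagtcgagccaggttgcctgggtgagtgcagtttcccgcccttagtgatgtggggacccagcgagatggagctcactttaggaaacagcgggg
The same pair of ISRE letters, TTTCACTTTC followed by TTTCAGTTTC, lay 104 and 85 bases before the start of Ifit1 and 156 and 122 bases before that of Ifit3. In Gbp3 2 overlapping matches lay 45 and 39 bases before the start. Neither of the 2 windows of Ifit2 held the ISRE core, which says only that these letters are not in these windows.

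For the signalling factors a short stretch around the match is enough, with 15 bases on each side. Stat2 had an ISRE core 222 bases before its start, and Irf1 had the gamma-activated site 90 bases before its start, while the window of Irf7 held neither.
Stat2, chr10:128270261-128270300: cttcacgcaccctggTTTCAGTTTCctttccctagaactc
Irf1, chr11:53769909-53769947: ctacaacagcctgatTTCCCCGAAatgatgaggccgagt
An ISRE core was found for 6 of the 9 genes (Gbp2 and Isg15 as well as Ifit1, Ifit3, Gbp3 and Stat2), against 3.99 percent of all 27025 genes with a window (3.44 percent of 32851 windows), and for 25 of the 53 antiviral effector genes with a window. The amino acid response element core TGATGNAA, which ATF4 binds, was found for Gbp3 alone of the 9, in its other window, against 4.51 percent of all genes; the gamma-activated site was found for 2 of the 9, against 9.55 percent. Among all 607 tested genes with an ISRE core, 1.48 percent were lower and 3.46 percent higher at 5 h, against 1.74 and 2.49 percent of the 15614 tested genes with a window, and their median log2 change was -0.01.

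The deposited log2 values ran from 3.07 to 14.2, and array medians lay between 7.02 and 7.12. Changes are deprived minus control on this log2 scale; SE is the standard error from limma, with n = 4 arrays per group at 5 h, and a call means a Benjamini-Hochberg adjusted p under 0.05 over all 19938 genes. At 5 h array 4 of either group was, for the genes described here, the one most often far from its group, and deviations from the group means correlated between same-numbered control and deprived arrays with 0.354, 0.584, 0.467 and 0.896. The labels do not call same-numbered arrays pairs, and the shift of array 4 in both groups also raises the correlations of the other arrays. A fit with the replicate number as a block takes same-numbered arrays as pairs. It is given beside the unblocked one where it changes a call of a gene named here. The deprivation itself was visible in Trib3, a target of the amino acid response, which rose by 2.52 (SE 0.12, limma adjusted p = 1.74e-05), as did Chac1 by 2.12, Ddit3 by 1.77 and Asns by 1.01. The neural progenitor genes Sox2 and Nes stood at 10.87 (SD 0.10) and 10.66 (SD 0.22) in 5 h control cells, and Nes fell at 5 h by 0.69 (SE 0.12), 1 of 8 progenitor markers lower without the block and 2 with it. Gja1 fell by 0.76 (SE 0.08, limma adjusted p = 0.00102). It was the only 1 of 6 astrocyte markers to pass in either fit, and the median change of that list was -0.03. Of 7 fibroblast markers none passed without the block and 3 were lower with it, among them Col1a1 (-0.33, adjusted p = 0.346, and 0.00827 with the block). Over all genes 1.7 percent were lower without the block and 10 percent with it. None of 8 microglia and macrophage markers passed at 5 h (1 was lower with the block), and their mean level was 6.20 to 6.57 on control and 6.11 to 6.46 on deprived arrays. The part of these marker genes in the results was not tested. In RNA from whole cultures, fewer cells of a type and less RNA per cell cannot be told apart.

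The first question was whether these genes differed after 5 h without amino acids. Ifit3 and Gbp3 fell, by 0.57 and 0.47 on the log2 scale, and no measured member rose. Ifit1, Irf7, Stat2 and Irf1 were also lower in deprived cells in all 4 same-numbered pairs, but passed only with the replicate number as a block, and Ifit2 did not pass in either fit. Thus 2 of 7 members were lower, against 1.7 percent of all genes, and 6 of 7 with the block, against 10 percent. None was higher, against 2.41 percent of all genes without the block and 8.22 percent with it. Without both arrays numbered 4 the same 6 of 7 were lower, against 7.17 percent of genes, and none higher, against 6.34 percent. The median change of the 7 genes was -0.33 and that of all genes -0.01. The genes were picked with earlier results of these data known, so these counts describe them and are no independent evidence.

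**Figure D1:**
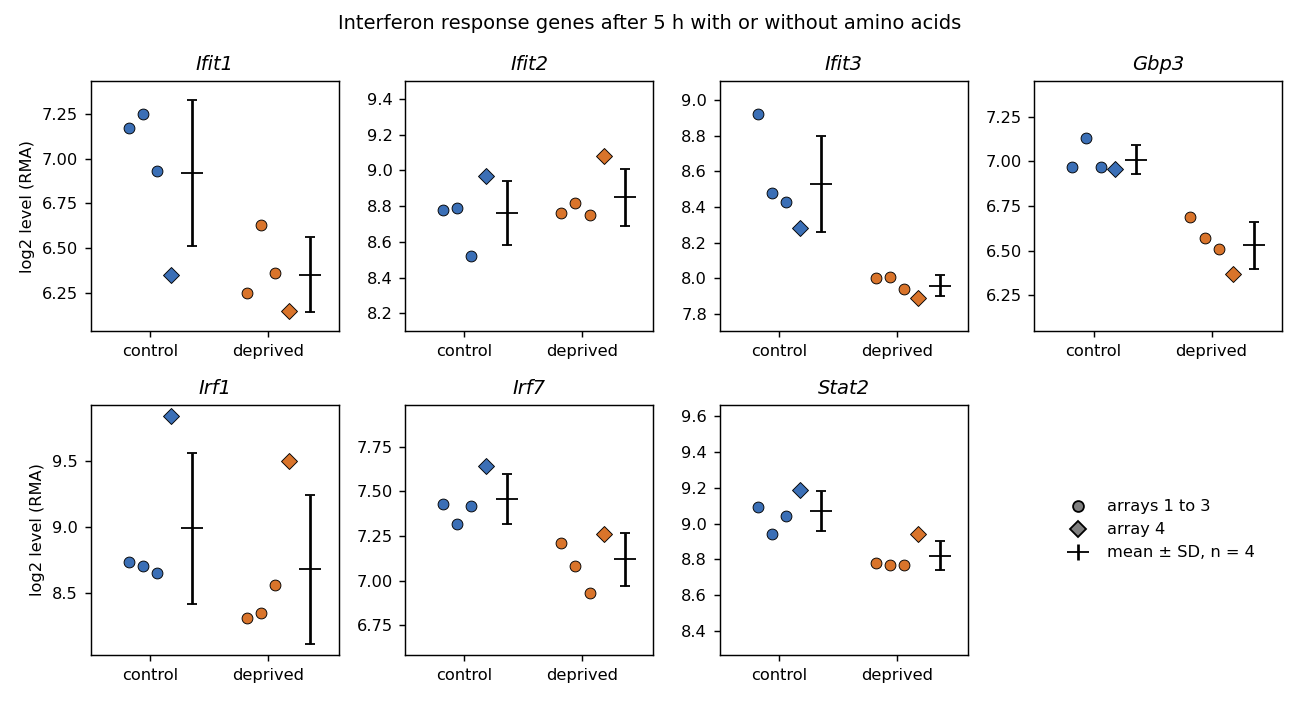
Log2 levels of the 7 measured interferon response genes on each 5 h array, control in blue and deprived in orange, with arrays 1 to 3 as circles, array 4 as a diamond and the mean with its SD (n = 4) beside them; the axis ranges differ between panels. The groups do not overlap for Ifit3, Gbp3, Irf7 and Stat2, and in Irf1 array 4 is the highest of its group in both groups.

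Of the signalling factors, Stat2, a subunit of the transcription complex that the type I interferon receptor activates, stood at 9.09, 8.94, 9.04 and 9.19 on control arrays 1 to 4 and at 8.78, 8.77, 8.77 and 8.94 on deprived arrays 1 to 4. The lowest control array was just above the highest deprived array. The change was -0.25 (SE 0.08, limma adjusted p = 0.159). The adjusted p was 0.0132 with the replicate block and 0.0387 after quantile normalization without it, and ran from 0.0132 to 0.385 over all settings.

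Irf7, the amplifier of interferon production, was at 7.43, 7.32, 7.42 and 7.64 on the control arrays and 7.21, 7.08, 6.93 and 7.26 on the deprived arrays. These groups did not overlap either. The change was -0.33 (SE 0.10, limma adjusted p = 0.121; 0.00489 with the replicate block; 0.00489 to 0.328 over all settings).

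Irf1 was at 8.74, 8.71, 8.65 and 9.84 on the control arrays and 8.31, 8.35, 8.56 and 9.50 on the deprived arrays. Array 4 was well above the others in both groups, so the groups overlapped although each deprived array was below its same-numbered control. The change was -0.31 (SE 0.32, limma adjusted p = 0.932), and with the replicate block the SE was 0.07 and the adjusted p 0.0101. It was -0.29 without both arrays numbered 4 (adjusted p = 0.0309) and ran from -0.58 to -0.02 with 1 array left out. The other array row of Irf1, with a mean level of 6.85 against 8.86, differed by -0.06 at 5 h.

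Among the effector genes, Ifit3 was at 8.92, 8.48, 8.43 and 8.28 on the control arrays and 8.0, 8.01, 7.94 and 7.89 on the deprived arrays. The deprived arrays lay close together and below every control. The change was -0.57 (SE 0.13), a 1.48-fold lower level, with an adjusted p = 0.0373 in limma. With 1 array fewer the call was lost for 6 of the 8 arrays: the adjusted p was 0.101 and 0.0731 without control arrays 2 and 3, and 0.104, 0.0979, 0.115 and 0.0605 without deprived arrays 1 to 4. It was 0.000789 with the replicate block. Ifit3 has a near-identical neighbour, Ifit3b, and probes may read both, so the values of Ifit3 are uncertain in that respect. Ifit3b, on a row of its own, differed by -0.09 at 5 h, without a call in either fit. Its 16 h difference was -0.63, with 1 array per group.

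Ifit1 was at 7.17, 7.25, 6.93 and 6.35 on the control arrays and 6.25, 6.63, 6.36 and 6.15 on the deprived arrays. Control array 4 lay inside the deprived range, and the other 3 controls lay above it. The change was -0.57 (SE 0.19, limma adjusted p = 0.169), and -0.70 without both arrays numbered 4 (adjusted p = 0.00157). It passed without control array 4 alone (adjusted p = 0.00794) and with the replicate block (0.00166).

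Ifit2 was at 8.78, 8.79, 8.52 and 8.97 on the control arrays and 8.76, 8.82, 8.75 and 9.08 on the deprived arrays. The groups overlapped, and the deprived array was the lower in 1 of 4 pairs. The difference was 0.09 (SE 0.11, limma adjusted p = 0.97; 0.442 with the replicate block). A p of this size does not show that Ifit2 was the same in both groups, and its difference from Ifit1 and Ifit3 was not tested.

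Gbp3 was at 6.97, 7.13, 6.97 and 6.96 on the control arrays and 6.69, 6.57, 6.51 and 6.37 on the deprived arrays. Every deprived array was below every control. The change was -0.47 (SE 0.09), a 1.39-fold lower level, with an adjusted p = 0.0163 in limma and 0.000681 with the replicate block. The call was lost without control array 2 (adjusted p = 0.0674) and without deprived array 2 (0.052) or 3 (0.0637). Groups of 4 arrays that did not overlap, with the deprived arrays lower, were seen for 5.38 percent of all genes and for 4 of the 7 members; groups apart with the deprived arrays higher were seen for 5.15 percent of genes and no member.

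The next question was how the levels ran over time. At 1 and 2 h most members did not stand below control; 3 and 2 of 7 were lower in the deprived array. At 3 h 5 of 7 were lower, at 5 h and at 16 h 6 of 7. Over all genes 47.0, 51.8, 45.7, 55.4 and 56.2 percent were lower at 1, 2, 3, 5 and 16 h. The median difference of the 7 genes was 0.06, 0.11, -0.19, -0.33 and -0.47 at 1, 2, 3, 5 and 16 h. For all genes this median lay between -0.04 and 0.02. The arrays other than those of 5 h are 1 per group, so these differences have no replicate check of their own.

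**Figure D2:**
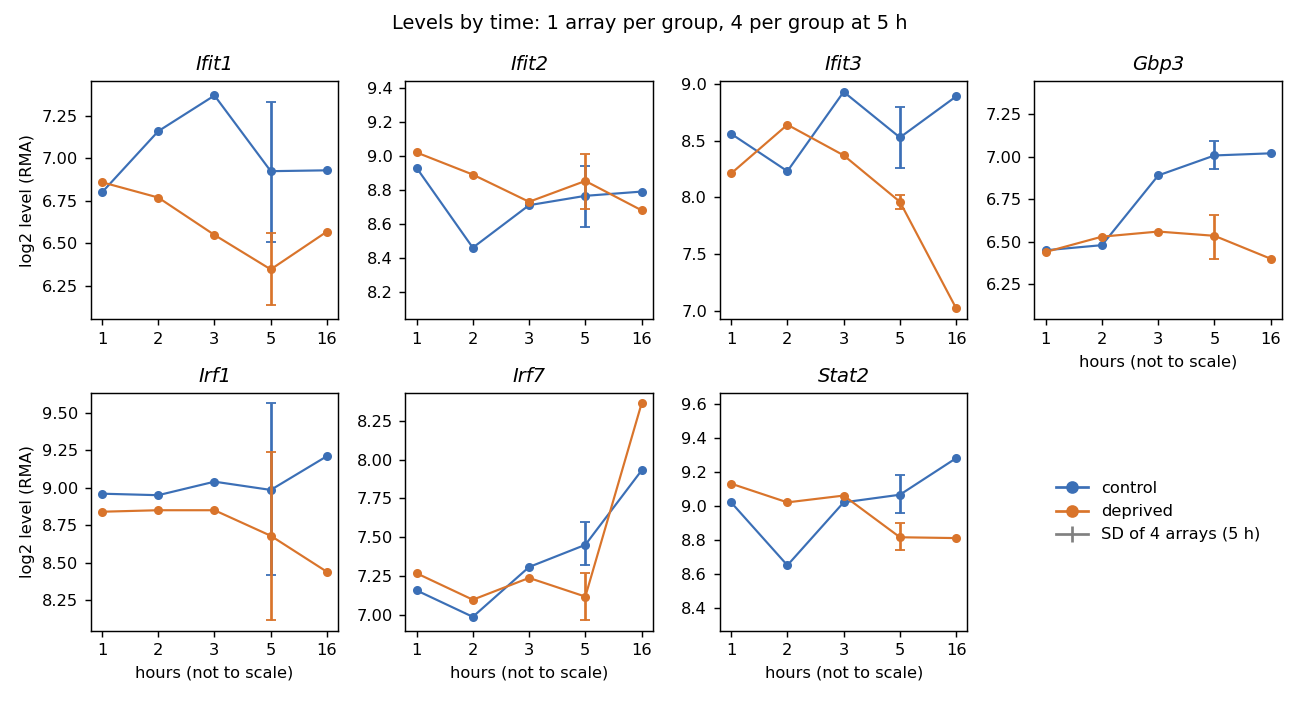
Log2 levels by time in control (blue) and deprived (orange) cells, 1 array per point except 5 h, which is the mean of 4 arrays with its SD; hours are spaced evenly and the axis ranges differ between panels. Ifit3 falls to 7.02 in deprived cells at 16 h while the control is at 8.89, and Irf7 is highest at 16 h in both groups.

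Ifit3 was at 8.56, 8.23, 8.93 and 8.89 in control cells and at 8.21, 8.64, 8.37 and 7.02 in deprived cells at 1, 2, 3 and 16 h. Its difference was -0.35, 0.41, -0.57 and -1.87, so the deprived array was above control at 2 h and 3.65-fold below it at 16 h. A difference of at least 2-fold lower at 16 h was seen for 2.97 percent of all genes and, among the members, for Ifit3 alone. Taking the spread from the 5 h arrays, which assumes that the single arrays vary like those, the 16 h difference had an SE of 0.25 and a limma adjusted p = 0.00319 (2.09e-05 with the replicate block). Ifit3 was the only member called at 16 h without the block; 2.89 percent of all genes were called lower and 3.1 percent higher. Some cell type markers were also at least 2-fold lower at 16 h. They were 2 of 6 of the astrocyte list, Slc1a3 (-2.49) and Gja1 (-1.45), and 2 of 7 of the fibroblast list, Dcn (-2.33) and Col1a1 (-2.13). Further ones were 1 of 8 of the neuron list, Stmn2 (-1.44), and 1 of 8 of the progenitor list, Sox2 (-1.27). The median differences of these lists were -0.40, -0.46, -0.10 and -0.54. Dcn was at 9.72 in control and 7.38 in deprived cells, and its 5 h control arrays lay between 7.61 and 7.93. Their part in the result for Ifit3 was not tested.

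Ifit1 was at 6.80, 7.16, 7.37 and 6.93 in control cells and at 6.86, 6.77, 6.55 and 6.57 in deprived cells. Its difference was 0.06, -0.39, -0.82 and -0.36, with the widest gap at 3 h. Ifit2 was at 8.93, 8.46, 8.71 and 8.79 against 9.02, 8.89, 8.73 and 8.68, with differences of 0.09, 0.44, 0.02 and -0.11. The 2 h gap of Ifit2, like those of Ifit3 and Stat2 at that time, came with the lowest control level of the series (8.46, 8.23 and 8.65).

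Gbp3 was at 6.45, 6.48, 6.89 and 7.02 in control cells and at 6.44, 6.53, 6.56 and 6.40 in deprived cells. Its control level was higher from 3 h on, while the deprived arrays of all times lay between 6.37 and 6.69. The difference at 16 h was -0.62 (limma adjusted p = 0.0726 with the spread of the 5 h arrays; 0.00619 with the replicate block).

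Irf1 was at 8.96, 8.95, 9.04 and 9.21 in control cells and at 8.84, 8.85, 8.85 and 8.44 in deprived cells, lower in the deprived array at each of the 4 times. Its 16 h difference was -0.77 (limma adjusted p = 0.719; 0.00193 with the replicate block). Stat2 was at 9.02, 8.65, 9.02 and 9.28 against 9.13, 9.02, 9.06 and 8.81, above control at 1, 2 and 3 h and below it by 0.47 at 16 h (limma adjusted p = 0.149; 0.0145 with the replicate block).

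Irf7 went the other way at the end of the series. It was at 7.16, 6.99, 7.31 and 7.93 in control cells and at 7.27, 7.10, 7.24 and 8.36 in deprived cells, so both 16 h arrays were above all earlier arrays. Its 16 h difference was 0.43 (limma adjusted p = 0.314; 0.0365 with the replicate block), against -0.33 at 5 h. With the block, 4 of 7 members were lower at 16 h (Ifit3, Gbp3, Irf1 and Stat2), against 11.4 percent of all genes, and Irf7 alone was higher, against 12.1 percent. Without both arrays numbered 4 the counts were again 4 and 1, against 11.7 and 12.1 percent.

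**Figure D3:**
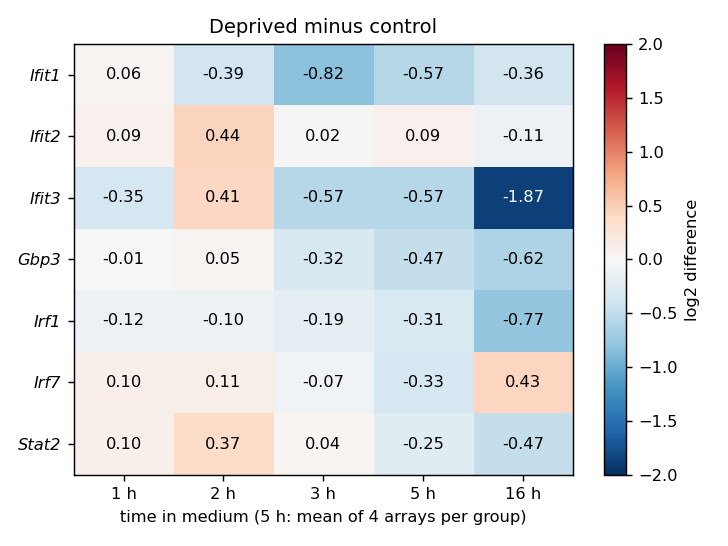
Log2 differences, deprived minus control, of the 7 measured genes at 1, 2, 3, 5 and 16 h (5 h is the mean of 4 arrays per group, the other times 1 array each); blue is lower and red higher in deprived cells. The lowest value is -1.87 for Ifit3 at 16 h, and Irf7 turns from -0.33 at 5 h to 0.43 at 16 h.

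Whether the 16 h difference departed from the 5 h difference was tested as a contrast, again with the spread of the 5 h arrays. For Ifit3 the 16 h difference was lower by 1.30 (SE 0.28, limma adjusted p = 0.0799; 0.00127 with the replicate block; 0.00469 without both arrays numbered 4). It passed also without control array 1 (adjusted p = 0.0234) or control array 4 (0.038). For Irf7 it was higher by 0.77 (SE 0.22, limma adjusted p = 0.206; 0.00688 with the replicate block; 0.012 without both arrays numbered 4). No member passed without the block, where 0.752 percent of genes were called lower and 0.236 percent higher. With it 1 member was lower and 1 higher, against 6.15 and 6.12 percent of genes, and the same held without both arrays numbered 4, against 6.58 and 6.02 percent.

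The mean difference over 1, 2, 3 and 16 h, fitted in limma with time as a factor, was -0.59 (SE 0.34) for Ifit3, -0.38 (SE 0.14) for Ifit1, -0.30 (SE 0.13) for Irf1 and -0.23 (SE 0.12) for Gbp3. It was 0.14 (SE 0.10) for Irf7, 0.11 (SE 0.10) for Ifit2 and 0.01 (SE 0.14) for Stat2. In this fit the error comes from how the differences vary between times. Without 16 h the mean was -0.17 for Ifit3, -0.14 for Irf1, -0.09 for Gbp3, 0.05 for Irf7, 0.18 for Ifit2 and 0.17 for Stat2. Without 2 h it was -0.93 for Ifit3, without 3 h -0.23 for Ifit1 and 0.22 for Irf7. None of the 7 passed in limma, and neither did any other gene (0.0 percent lower and 0.0 percent higher). At an unadjusted p under 0.05 stood 1 member, Ifit1, and 1244 genes in all. With the 5 h arrays added to this fit, Gbp3 (adjusted p = 0.0226) and Ifit1 (0.0478) passed. That fit includes the replicate arrays of 5 h, so these calls are not separate from the 5 h result. They are no evidence from the other times alone, and the share of all genes called there is not given here. At 1, 2 and 3 h taken alone, no gene passed in limma without the block, with the spread of the 5 h arrays (0.0 percent in either direction). Unadjusted, 0, 1 and 0 members and 197, 387 and 423 genes were under 0.05. With the replicate block no member passed at these times. Other genes did, among them Ccl2 (-1.05), Ccl7 (-0.95), Trib3 (1.22) and Chac1 (1.35) at 2 h.

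**Figure D4:**
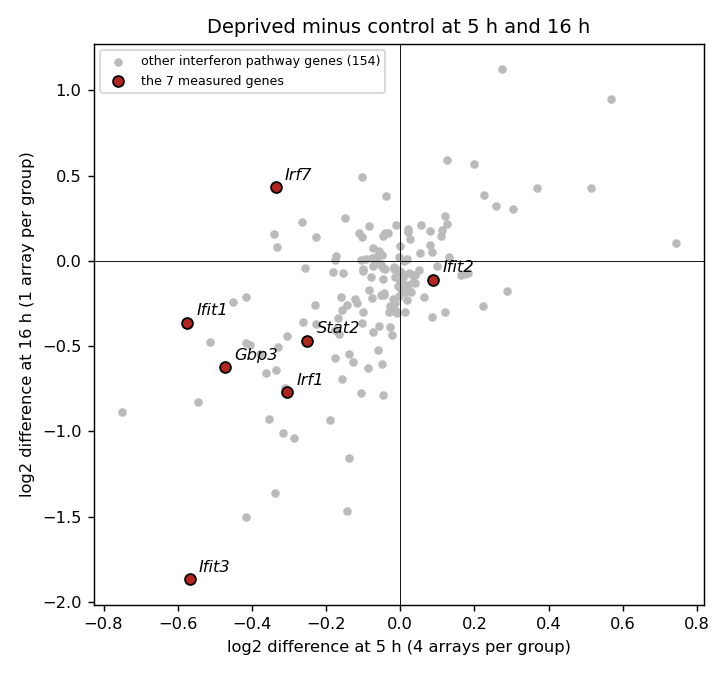
Log2 difference at 5 h (horizontal, 4 arrays per group) against that at 16 h (vertical, 1 array per group) for the 7 measured genes (red, named) and 154 other interferon pathway genes (grey); no array is shared between the axes. Ifit3, Ifit1, Gbp3, Irf1 and Stat2 are below 0 on both axes, Irf7 is below 0 at 5 h only, and Ifit2 is near 0 on both.

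The members did not move as 1 block across the 16 arrays. Ifit3 correlated with Ifit1 by 0.61, with Gbp3 by 0.60 and with Stat2 by 0.59, but with Ifit2 by 0.01 and with Irf7 by -0.28; Ifit1 and Ifit2 correlated by -0.43. These are descriptions over 16 arrays that share treatment, time and array effects. Genes most like the mean of the 7 members were Mycbp (0.93), Twf2 (0.92), Rab3a (0.92), Zbtb3 (0.91), Pja2 (0.90), Ap2s1 (0.90), Def8 (0.90) and R74862 (0.89), of 6869 genes with an SD of at least 0.2. Gbp3 was most like Oasl2, another interferon-induced gene (0.91), and Smtn (0.87). Ifit3 was most like Coro1c and Pls3 (both 0.94), Irf1 like Gm4983 (0.97) and Fbh1 (0.96), and Irf7 like Hap1 (0.90) and Araf (0.89). Ifit1 was most like Cipc and Znhit6 (both 0.88), Ifit2 like H3c15 (0.79) and Lrrc75a (0.75), and Stat2 like Sh3glb2 (0.80) and Ap2s1 (0.79).

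The other genes of the pathway were counted in the same way at 5 h. Of 154 further measured genes, 2 fell and 3 rose, against 1.7 and 2.41 percent of all genes. Without the block these counts were thus near the share of all genes, and the median was -0.05. Blocking on the replicate number gave 26 lower (16.9 percent) and 9 higher, against 10 and 8.22 percent. Without both arrays numbered 4 these counts were 19 and 9, against 7.17 and 6.34 percent. The lists were written from general knowledge with earlier results of these data known.

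**Figure D5:**
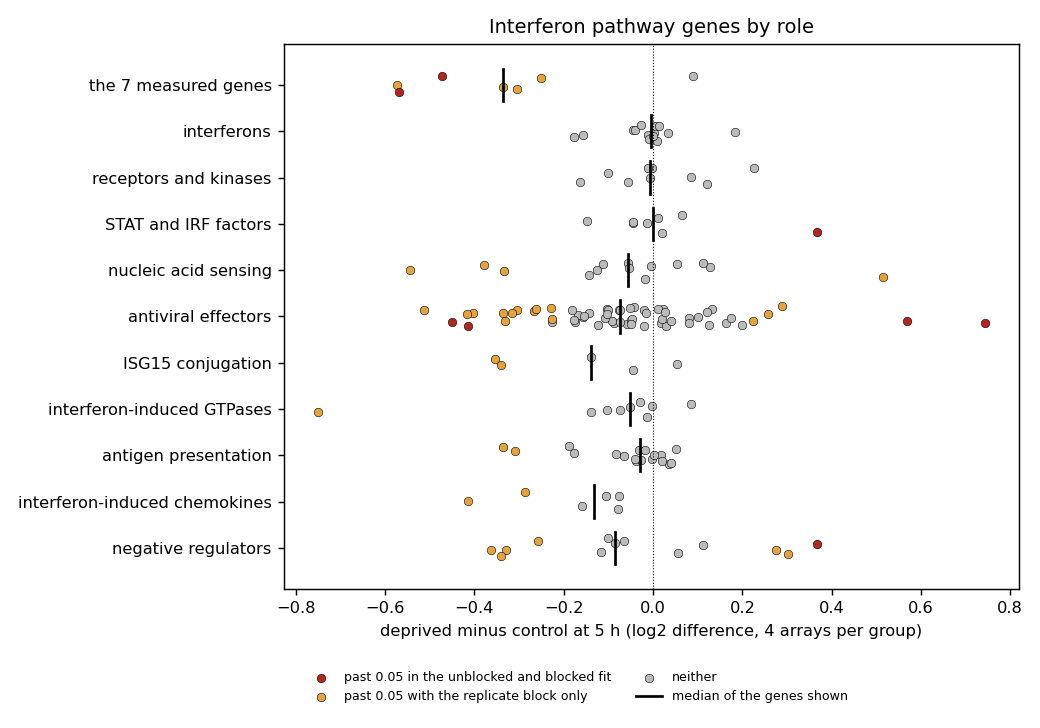
Log2 difference at 5 h of the 7 measured genes and of the other interferon pathway genes by role; each point is a gene, red if past an adjusted p of 0.05 in both limma fits, orange if only with the replicate block and grey if in neither, and the black line is the median of the points shown. The interferons and their receptors and kinases hold no coloured point, and most coloured points of the other roles lie below 0.

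The genes of the interferons, their receptors and the receptor kinases did not pass at 5 h. None of 14 measured interferon genes passed in either fit (changes of -0.18 to 0.18), and Ifnb1, the interferon that most cell types release first, was at 5.34 (SD 0.10) in control and 5.34 (SD 0.18) in deprived cells. None of the 9 receptor and kinase genes passed in either fit (-0.16 to 0.23). Ifnar1 and Ifnar2, the chains of the type I receptor, differed by -0.16 (SE 0.17) and -0.01 (SE 0.08), Ifngr1 by 0.23 (SE 0.12), and the kinases Jak1 and Tyk2 by -0.06 (SE 0.09) and -0.01 (SE 0.17). At 16 h none of the 9 passed without the block. With it 2 were lower, against 11.4 percent of all genes. These were Ifnar1 (-0.43, limma adjusted p = 0.687, and 0.0302 with the block) and Jak1 (-0.38, 0.297, and 0.0478 with the block). Irf9, the DNA-binding partner of Stat2, differed by 0.02 (SE 0.10), and Irf3, the constitutive sensor-driven factor, by -0.15 (SE 0.14).

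Of 11 measured STAT and IRF genes, 1 rose: Irf2, which competes with Irf1 for the same sites, rose by 0.37 (SE 0.08, limma adjusted p = 0.0252), opposite in sign to Irf1. Its groups did not overlap, from 9.68 (SD 0.06) to 10.05 (SD 0.09). The call was lost in 6 of 16 alternatives, with an adjusted p of 0.0763, 0.0787 and 0.0721 without control arrays 1 to 3 and 0.102, 0.0643 and 0.1 without deprived arrays 1 to 3. With the block 3 of the 11 were lower, against 10 percent of all genes: the members Irf1, Irf7 and Stat2. Irf2 was higher with the block, against 8.22 percent of all genes.

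The list of 64 antiviral effectors holds the members Ifit1, Ifit2 and Ifit3. Of the 64, 3 fell and 2 rose, against 1.7 and 2.41 percent of all genes, and the median change was -0.07. With the block 15 were lower (23.4 percent) and 5 higher, against 10 and 8.22 percent of all genes. Besides Ifit3, Xaf1, an apoptosis-linked interferon target, fell by 0.45 (SE 0.08, limma adjusted p = 0.0113), and Znfx1, an RNA helicase gene named after its values were seen, fell by 0.41 (SE 0.08, 0.0171). Tor3a, which codes for a torsin ATPase, rose by 0.74 (SE 0.12, 0.00738), and Rnf213, a ubiquitin ligase gene, by 0.57 (SE 0.12, 0.0338). Tor3a kept its call in all 16 alternatives run, Xaf1 in 14 of 15 (0.0525 without deprived array 1), Znfx1 in 11 of 16 and Rnf213 in 9 of 16. Znfx1 lost it without control array 1, 2 or 3 (adjusted p = 0.0648, 0.0518 and 0.0501) and without deprived array 1 or 2 (0.076 and 0.0643). Rnf213 lost it with median centring (0.0585), without control arrays 1 to 3 (0.111, 0.116 and 0.0882) and without deprived arrays 1 to 3 (0.0791, 0.0903 and 0.0669). Mx1, a classical interferon-induced GTPase gene, was at 4.76 (SD 0.08) and 4.78 (SD 0.12).

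Over all genes 1.7 percent were lower and 2.41 percent higher at 5 h, and 10 and 8.22 percent with the block. Of 14 nucleic acid sensing genes none passed, and with the block 3 were lower (21.4 percent) and 1 higher. Tlr3 (-0.55) and Ticam1 (-0.38) were lower with the block and Myd88 (0.51) was higher. These genes were named after their values were seen. Ddx58, which codes for the RNA sensor RIG-I, differed by -0.33 (SE 0.13, limma adjusted p = 0.284; 0.00214 with the block), whereas Ifih1, which codes for the related sensor MDA5, differed by -0.02 (SE 0.09). Of 5 genes of Isg15 conjugation none passed, against 2 lower with the block, among them Usp18, which removes Isg15 (-0.34, SE 0.23, limma adjusted p = 0.704; 0.0233 with the block). Of 10 interferon-induced GTPase genes only Gbp3 passed, and 2 were lower with the block. The other was Irgm1, named after its values were seen (-0.75, SE 0.19, limma adjusted p = 0.0622, and 0.000116 with the block). Of 18 antigen presentation genes none passed, and 2 were lower with the block (11.1 percent, near the share of all genes). Of 13 negative regulators Irf2 alone passed, and 4 were lower (30.8 percent) and 3 higher with the block. Some genes, such as Usp18, are in more than 1 list.

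At 16 h, with 1 array per group, 6 of the 154 genes were at least 2-fold lower (3.9 percent, against 2.97 percent of all genes), and 1 at least 2-fold higher, against 1.96 percent. The lower ones were Ccl2 (-1.50) and Ccl7 (-1.04), chemokine genes, Sting1 (-1.47), the adaptor of DNA sensing, Psme1 (-1.36), a proteasome activator subunit, Gbp9 (-1.16), a further guanylate-binding protein gene, and Lgals9 (-1.01), a galectin gene. Ptpn2, a phosphatase gene of JAK and STAT signalling, was higher by 1.12. At 5 h none of these 7 genes passed without the block in limma, and 5 did with it: Ccl2 (adjusted p = 0.00166), Psme1 (0.00869), Ccl7 (0.0164) and Lgals9 (0.0374) were lower and Ptpn2 (0.0378) higher. Sting1, Lgals9 and Ccl7 were called at 16 h with the block but, with all arrays, not without it. Sting1 was at 7.39 in control and 5.92 in deprived cells at 16 h, and Gbp9 at 8.31 and 7.15. Their 5 h deprived arrays lay between 6.11 and 7.05 and between 6.85 and 7.31. The 5 h controls ran from 5.94 to 7.73 and from 7.01 to 7.53.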

How the data were processed

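Each array received labelled cDNA from 250 ng of total RNA (Ambion and Affymetrix whole-transcript kits, per the labels' protocols). The authors deposited log2 values; RMA (robust multi-array average) and limma are the tools listed in the submitters' processing notes, and versions and settings are not given in the sources used here.

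The table has 35556 rows and 16 arrays. Rows were named through the platform annotation: 21789 had 1 symbol, 1621 several and 12146 none. Symbols were updated through Entrez identifiers (RefSeq, GRCm38.p6), which held 21698 of the 21789. Of several rows of a gene the one with the highest mean over 16 arrays was kept, giving 19938 genes.

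Tests used limma 3.58.1 in R 4.3.3 (lmFit, eBayes, two-sided, Benjamini-Hochberg). At 5 h, 4 arrays per group were compared. The times with 1 array per group were averaged with time as a factor, and compared singly in a fit of 10 groups whose spread comes from the 5 h arrays. The number of arrays limits the precision. The methods were tested on simulated data. Alternatives were the replicate block, quantile normalization, median centring, genes above the median level, the mean of a gene's rows, a trended and robust prior, all 16 arrays, and arrays or times left out. Same-numbered 5 h arrays deviated together, every correlation being over 0.1, and were taken as pairs in the block alternative only. The shift of array 4 in both groups raises all these correlations, so they do not show that the arrays are pairs.

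The members, lists and tests were chosen with earlier results of these data known. Named were all members; of each list up to 4 genes past the threshold at 5 h and up to 3 with a log2 difference of at least 1 at 16 h; and Irf9, Irf3, Ifnar1, Ifnar2, Ifngr1, Jak1, Tyk2, Ifnb1, Usp18, Ddx58, Ifih1, Mx1, Nfkbia and Trib3. Not every gene of that rule is reported here. Promoter motifs were searched on both strands. Python 3.11.15, numpy 2.4.6, pandas 2.3.3 and matplotlib 3.10.9 handled data and plots.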

Additional observations from a re-analysis of the deposited data

Results flagged for a closer look

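At 5 h, 14 of 76 sets of 4 arrays had 1 array far from the other 3 (Dixon's 95% criterion, which chance meets in about 1 of 20 groups); 12 of the 14 involve an array numbered 4. Among the members, Gbp3 was at 7.13 on control array 2 (others 6.96 to 6.97), Irf1 at 9.84 on control array 4 (others 8.65 to 8.74) and Stat2 at 8.94 on deprived array 4 (others 8.77 to 8.78).

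Of the other pathway genes, array 4 was the stray one on the control side for Vcam1 (10.04, others 9.38 to 9.48), Tyk2 (8.46, others 7.75 to 7.82), Irf3 (8.69, others 8.27 to 8.33) and Ddx58 (10.22, others 9.77 to 9.83). On the deprived side it was the stray one for Irf3 (8.62, others 8.10 to 8.13), Ddx58 (9.89, others 9.43 to 9.49), Sting1 (7.05, others 6.11 to 6.26), Tor3a (10.40, others 10.05 to 10.10), Ifnar1 (10.12, others 9.53 to 9.58) and, as the lowest, Mx1 (4.60, others 4.82 to 4.86). Ifih1 stood out on deprived array 2 (5.51, others 5.43 to 5.44).

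Relb, an NF-kB subunit gene, differed by 0.16 at 5 h and by 1.02 at 16 h. The contrast of 0.87 had a limma adjusted p = 0.043, with the spread taken from the 5 h arrays.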

How the results depend on the processing

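With the replicate block 6 members were lower at 5 h, and 6 also without both arrays numbered 4; among genes above the median level, where Gbp3, Ifit1 and Irf7 drop out, 1 was, and with 1 array left out 0 to 3. Of the 154 other pathway genes 26 were lower with the block, 6 after quantile normalization, 19 without both arrays numbered 4 and 0 to 6 with 1 array left out; 9, 5, 9 and 1 to 4 were higher. With 5 h added to the mean over times 2 members were lower, in a fit that includes the replicate arrays of 5 h. In the contrast of 16 h with 5 h, 1 member was lower and 1 higher with the block, as when both arrays numbered 4 were left out, and 0 to 1 were lower with 1 array left out. At 16 h 4 members were lower with the block, 3 after quantile normalization, 4 without both arrays numbered 4 and 1 to 2 with 1 array left out. Under the block 1 was higher, and 1 when both of those arrays were left out. Over all genes 1.7 percent were lower at 5 h without the block, 10 percent with it and 7.17 percent without both arrays numbered 4. At 16 h these shares were 2.89, 11.4 and 11.7 percent. The shares higher were 2.41, 8.22 and 6.34 percent at 5 h and 3.1, 12.1 and 12.1 percent at 16 h. For quantile normalization, genes above the median level, 5 h added and 1 array left out the share is not given here.

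Small differences changed sign. Without both arrays numbered 4 the 5 h difference was 0.04 for Sting1, 0.00437 for Ifnar2, 0.05 for Tyk2 and 0.06 for Ifih1; after quantile normalization it was 0.01 for Tyk2 and -0.00452 for Ifnb1. With 1 array left out it ran from -0.36 to 0.25 for Sting1, -0.06 to 0.02 for Ifnar2, -0.11 to 0.16 for Tyk2, -0.07 to 0.08 for Ifnb1, -0.06 to 0.06 for Ifih1, -0.06 to 0.07 for Irf9, -0.09 to 0.00158 for Jak1 and -0.01 to 0.08 for Mx1. The mean over times was -0.00121 for Ifit2 without 2 h, -0.10 for Irf7 with 5 h added, and for Stat2 -0.02 without 1 h, -0.11 without 2 h and -0.12 with 5 h added. Irf1 at 1 h was 0.02 with the mean of its rows. The cause of these changes was not tested. No detection call was used here, so how far low levels such as those of Mx1 and Ifnb1 stand above background is not known.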

Other observations

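Chemokine and NF-kB target genes, which share inducers with the interferon response, gave the following values. Of 6 interferon-induced chemokine genes none passed at 5 h in limma (median -0.13); 2 were lower with the replicate block, where 10 percent of all genes were. Ccl2 and Ccl7, which code for monocyte attractants, were below control at every time: Ccl2 by -0.75, -1.05, -0.72, -0.41 and -1.50 and Ccl7 by -0.47, -0.95, -0.35, -0.29 and -1.04 at 1, 2, 3, 5 and 16 h, with 1 array per group except at 5 h.

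Of 20 NF-kB target genes none passed at 5 h (median -0.08); 7 were lower with the replicate block, where 10 percent of all genes were. Among these were Cxcl5 (-0.68, limma adjusted p = 0.145; 0.000558 with the block) and Vcam1 (-0.27, 0.731; 0.0173 with the block). Nfkbia, which codes for the NF-kB inhibitor, differed by -0.27 (SE 0.11, limma adjusted p = 0.274; 0.00758 with the block). At 16 h Cxcl5, a neutrophil chemokine gene, was lower by -2.60 and Vcam1, an adhesion molecule gene, by -1.75, while Relb was higher by 1.02.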
